A study of Mus musculus with 12 samples.

Results

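The nuclear genes that encode the subunits of oxidative phosphorylation were followed across 12 expression arrays of mouse lung fibroblasts. The members were all genes of the array annotation whose symbol begins with Ndufa, Ndufb, Ndufc, Ndufs or Ndufv and a number, with Uqcr, with Sdha to Sdhd, with Cox4 to Cox8 or with Atp5, leaving out Ndufa4l2. They were 78 of the 17097 genes with a probe set of their own, namely 32 of complex I, 4 of complex II, 7 of complex III, 18 of complex IV and 17 of complex V. Of these, 77 were tested because 2 or more arrays exceeded log2 5.1, which is the median over all values and is called the filter below. Cox7b2, the testis isoform of a complex IV subunit, did not, with signals of 2.06 to 2.58 on the 12 arrays. All but 3 of the tested members were above that level on every array. The exceptions were Sdhd, above it on 11 arrays, Cox4i2 on 10, and Cox8c on 4 arrays that were all dim.

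The cells were sorted from lungs digested with dispase, in mice that carry GFP as a reporter of Pdgfra, the gene of PDGF receptor alpha, and 2000 cells of a bright and of a dim GFP gate were taken per sample. Lungs were collected on day 5 after a pneumonectomy, in which part of the lung is taken out, in mice expressing a dominant-negative FGF receptor 2 (PNX-dnFGFR), after a pneumonectomy without it (PNX), or after a sham operation (SHAM). Each of the 6 groups (bright PNX-dnFGFR, bright PNX, bright SHAM, dim PNX-dnFGFR, dim PNX and dim SHAM) had 2 arrays. By the design text, alveolar septa regenerate after pneumonectomy and do not after sham surgery, and the receptor mutant inhibits that regrowth. The sources used here do not give the cells or promoter that express the mutant receptor, nor the strain, age and sex of the animals. The labels call the replicates biological and do not say whether each is 1 animal or a pool, so p-values measure the spread between these samples, and bright and dim samples may come from the same animals.

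Oxidative phosphorylation is the last stage of respiration in the inner mitochondrial membrane. Complexes I and II take electrons from NADH and succinate, complex III passes them to cytochrome c and complex IV to oxygen. Complexes I, III and IV pump protons as they do so, and complex V, the ATP synthase, lets the protons flow back through a rotating ring of c subunits and makes ATP. The proteins listed here are encoded in the nucleus and join a few made inside mitochondria, and several complex IV subunits come in a ubiquitous form and a form restricted to heart, skeletal muscle, brown fat, testis or lung.

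Array medians over all probe sets lay between 5.06 and 5.13, and the median signal of the members was 8.91 to 9.18 on the bright and 8.74 to 8.96 on the dim arrays, in log2 units that cannot be compared between genes. Precision is limited by the number of arrays. The fit left a residual standard deviation with a median of 0.129 log2 over the members and 0.199 over the 11073 genes tested. Summed signals of 6 fibroblast markers were 13.84 to 13.99 on bright and 13.04 to 13.24 on dim arrays. Among them Col1a1, Col1a2, Col3a1, Dcn and Lum were called higher in bright cells. Dcn gave 11.97 to 12.21 on bright and 5.72 to 8.48 on dim arrays. Lum gave 8.21 to 8.93 on bright and 2.34 to 3.06 on dim arrays, so it passed the filter only through bright cells. Pdgfra, however, gave 4.84 to 5.54 on the arrays labelled bright, below the 6.66 to 7.13 on those labelled dim (log2 difference -1.75), so bright and dim are used here as labels. Of the markers of other cell types, 5 of mesothelium summed to 10.11 to 11.45 on bright and 7.64 to 9.26 on dim arrays. Of the 4 tested, 3 were called higher in bright cells, but Wt1 and Lrrn4 among them passed the filter only through bright cells. Summed signals of 9 macrophage markers were 11.33 to 11.66 on bright and 11.28 to 12.57 on dim arrays, and those of 9 epithelial markers 12.06 to 13.34 and 12.46 to 13.53. Lymphocyte markers, 5 in number, summed to 7.04 to 7.56 on bright and 7.69 to 8.18 on dim arrays. The 6 endothelial ones summed to 7.95 to 8.77 and 8.17 to 9.21. Neutrophil markers, 3 in number and none called, summed to 6.47 to 8.30 on bright and 6.01 to 10.12 on dim arrays. In dim cells they gave 9.39 to 10.12 in SHAM, 6.01 to 8.04 in PNX and 7.93 to 8.39 in PNX-dnFGFR. Called lower in bright cells were Ptprc and Lyz2 of the macrophage list, Hopx of the epithelial, Cd3d and Cd79a of the lymphocyte and Cdh5 and Egfl7 of the endothelial list, with log2 differences of -0.34 to -2.20. The part of these cells in the results was not tested. In such bulk samples fewer cells of a type and less RNA per cell cannot be told apart.

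Bright cells carried more signal than dim cells for most subunit genes. As the mean over the 3 conditions, 40 of the 77 tested members (51.9%) were called higher in bright cells, where 28.5% of all genes tested were, and 4 (5.19%) were called lower, where 19.3% of all genes were. In either direction 57.1% of the members and 47.8% of all genes were called. Called means an adjusted p below 0.05 in limma's moderated test, with Benjamini and Hochberg's adjustment over all 11073 genes. The median difference of bright minus dim was 0.24 log2 over the members and 0.05 over all genes, and 65 members lay above 0 (84.4%, against 54.7% of all genes). The differences were small for single genes: they ran from -1.37 to 1.04, and the quartiles were 0.05 and 0.38. All 6 bright arrays lay above all 6 dim arrays for 21 members, an arrangement found in 14.1% of all genes, and below them for 1 member, Cox8b, an arrangement found in 9.47%. Among the 72 members above a stricter level of log2 6.76, 43 were called higher and 2 lower, beside 35.3% and 22.8% of the genes tested there.

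**Figure D1:**
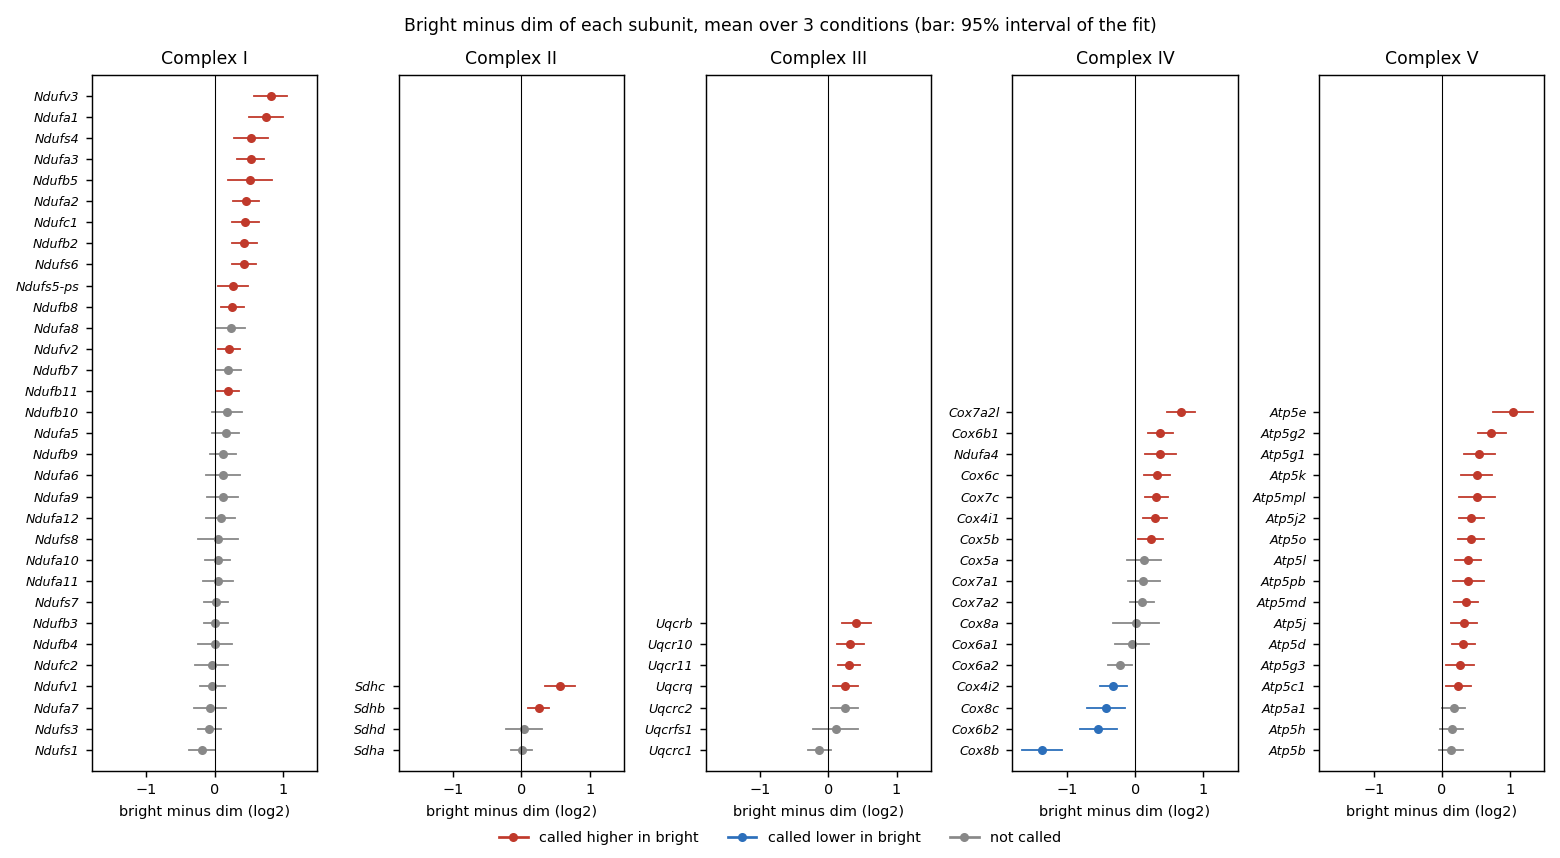
Difference of bright minus dim on the log2 scale for the 77 tested subunit genes, as the mean over the 3 conditions, grouped by complex; points are the fitted differences, bars their 95% intervals, red and blue mark genes called higher and lower in bright cells. All 17 complex V genes lie above 0, and the 4 genes called lower are all complex IV isoforms.

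The c subunit gene Atp5g2, the epsilon subunit gene Atp5e and Ndufs6, an accessory subunit of complex I, were among the members that rose, and Cox8b, a muscle and brown fat isoform of complex IV, had the largest fall. Their promoters are shown because these members carry the 2 directions of the bright and dim contrast and because the first 3 hold motifs often described in genes of respiration. Each is 300 bases from RefSeq on GRCm38.p6, from 250 before the transcription start to 50 after it, read 5' to 3' on the minus strand: chr15:102670998-102671297 for Atp5g2, chr2:174464052-174464351 for Atp5e, chr13:73328433-73328732 for Ndufs6 and chr7:140900397-140900696 for Cox8b. Capitals mark the motif found, which is an NRF1-type match in Atp5g2 (GCGCATGCG on both strands, overlapping), an ETS-type match in Atp5e (CCGGAAG on the opposite strand), a YY1-type match in Ndufs6 (AAGATGGCG) and a TATA-type match in Cox8b (TATAAA).
Atp5g2: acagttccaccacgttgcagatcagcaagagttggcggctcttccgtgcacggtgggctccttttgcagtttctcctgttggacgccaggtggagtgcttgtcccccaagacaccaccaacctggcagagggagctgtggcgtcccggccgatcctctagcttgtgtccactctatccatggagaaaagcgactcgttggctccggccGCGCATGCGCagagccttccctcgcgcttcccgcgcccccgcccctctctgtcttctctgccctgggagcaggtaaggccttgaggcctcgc
Atp5e: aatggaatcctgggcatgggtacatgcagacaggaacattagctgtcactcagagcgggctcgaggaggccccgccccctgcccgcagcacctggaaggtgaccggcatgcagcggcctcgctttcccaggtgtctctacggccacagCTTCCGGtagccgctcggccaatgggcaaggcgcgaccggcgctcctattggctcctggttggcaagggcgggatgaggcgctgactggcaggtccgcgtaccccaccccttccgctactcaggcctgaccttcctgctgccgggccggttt
Ndufs6: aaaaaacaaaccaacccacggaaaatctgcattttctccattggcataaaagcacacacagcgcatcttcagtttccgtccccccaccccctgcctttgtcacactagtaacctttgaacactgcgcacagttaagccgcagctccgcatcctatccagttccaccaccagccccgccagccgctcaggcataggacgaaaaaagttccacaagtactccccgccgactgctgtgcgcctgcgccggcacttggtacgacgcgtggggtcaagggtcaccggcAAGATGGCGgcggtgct
Cox8b: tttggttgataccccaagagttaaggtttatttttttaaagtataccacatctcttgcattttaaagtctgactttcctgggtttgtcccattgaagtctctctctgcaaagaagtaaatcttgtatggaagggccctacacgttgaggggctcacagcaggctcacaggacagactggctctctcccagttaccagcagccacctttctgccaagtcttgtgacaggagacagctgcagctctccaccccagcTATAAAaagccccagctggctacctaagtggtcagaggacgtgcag
The matches lay from -42 to -33 in Atp5g2, from -102 to -96 in Atp5e, from 34 to 42 in Ndufs6 and from 5 to 10 in Cox8b, counted from the transcription start. Promoters were in the table for 63 of the 78 members. GCGCATGCG, searched on both strands like the others, was in 8 of them (12.7%) and in 1.95% of the promoters of all 27025 genes listed. AAGATGGCG was in 7 members (11.1%, against 1.64% of all genes), CCGGAAG in 15 (23.8%, against 9.93%) and TATAAA in 8 (12.7%, against 15.7%). Median bright minus dim was 0.27 log2 over the 8 members with GCGCATGCG and 0.20 over the 54 tested members without it. It was 0.43 over the 7 members with AAGATGGCG and 0.20 over the other 55, 0.25 over the 15 with CCGGAAG and 0.21 over the other 47, and 0.20 over the 7 tested members with TATAAA and 0.23 over the other 55. Of the 8 members with GCGCATGCG 4 were called higher, against 28 of the 54 without it, and of the 7 with AAGATGGCG 5, against 27 of 55. A match here is a run of letters, not a site shown to be bound.

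Complex I takes up NADH in an arm that reaches into the matrix, and its membrane arm pumps protons. Of its 32 members 13 (40.6%) were called higher in bright cells and 0 lower, with a median of 0.17 log2. Over all genes 28.5% were called higher and 19.3% lower. In either direction, the 40.6% of complex I lay below the 47.8% of all genes. Ndufv3, an accessory subunit near the site of NADH oxidation, had the lowest, median and highest signals of 9.52, 9.73 and 9.91 on bright arrays, against 8.66, 8.93 and 9.10 on dim arrays. No bright array overlapped a dim one, and the difference was 0.82 log2 (± 0.10 SE, 1.77-fold, limma adjusted p = 0.00019). Errors after ± are standard errors (SE) of the fit, here with n = 6 arrays per subset and, within a condition, with 2 arrays per group. Ndufa1, a small membrane-arm subunit, gave 8.44, 8.63 and 8.93 on bright and 7.70, 7.78 and 8.29 on dim arrays, again without overlap (0.76 ± 0.11, limma adjusted p = 0.00036). Ndufa3, another membrane-arm subunit, was higher by 0.53 ± 0.09, and the zinc-binding Ndufs6 by 0.43 ± 0.08, with no overlap of arrays for either. Ndufs4, an accessory subunit whose human gene is mutated in Leigh syndrome, was higher by 0.54 ± 0.11 with overlapping arrays. Its other probe sets gave -0.05 and -0.33, and the mean of its 3 probe sets 0.05, which was not called.

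Most of the subunits that carry the electrons of complex I were not called. Accessory subunits had 11 of 25 members called higher (44%) and a median of 0.20 log2. The core subunits, most of which hold flavin or iron-sulfur clusters, had 1 of 6 (16.7%) and a median of -0.01. Of all genes 28.5% were called higher. The 1 core member called was Ndufv2, at 0.21 ± 0.07. Ndufs1, the largest iron-sulfur subunit, had 7.37, 7.48 and 7.63 on bright arrays, against 7.49, 7.64 and 7.95 on dim arrays, with a difference of -0.18 ± 0.08 that did not pass (limma adjusted p = 0.10). Ndufs3, Ndufs7, Ndufs8 and Ndufv1 lay between -0.08 and 0.05. Whether core and accessory subunits differ was not tested. The last of the 13 is Ndufs5-ps, which the annotation names as a pseudogene of Ndufs5 and which had 0.27 ± 0.10. Its probe set carries the _s mark of probes shared between transcripts, so signal of Ndufs5 itself cannot be told apart, and its other probe set gave 0.05.

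Complex II, succinate dehydrogenase, feeds electrons from the citric acid cycle. Sdhc, which anchors it in the membrane, gave 7.62 and 7.69 in bright PNX-dnFGFR cells, 7.48 and 7.49 in bright PNX cells and 7.12 and 6.8 in bright SHAM cells, against 6.66 and 6.78 in dim PNX-dnFGFR cells, 6.97 and 7.10 in dim PNX cells and 6.47 and 6.83 in dim SHAM cells. One bright SHAM array fell among the dim arrays, and no other bright array did. The mean difference was 0.57 ± 0.10 (limma adjusted p = 0.001). Sdhb, the iron-sulfur subunit, was higher by 0.25 ± 0.07 (limma adjusted p = 0.017). Sdha, the flavoprotein that oxidises succinate, had 9.66 to 9.86 on bright and 9.67 to 9.80 on dim arrays and a difference of 0.01 ± 0.07. That value rests on its brightest probe set, and the mean of its 4 probe sets gave -0.33 (limma adjusted p = 0.0072). Sdhd, the other anchor, had 0.04 ± 0.12 at signals of 4.92 to 5.82, close to the filter.

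In complex III, which oxidises ubiquinol, 4 of 7 members were called higher (57.1%, beside 28.5% of all genes) and all 4 were small subunits. Uqcrb, which binds ubiquinone, had 7.65, 7.89 and 7.97 on bright arrays, against 7.16, 7.5 and 7.67 on dim arrays. These ranges overlapped slightly, and the difference was 0.41 ± 0.09 (limma adjusted p = 0.0051). Uqcr10 had 0.32 ± 0.09, Uqcr11 0.30 ± 0.07 with no overlap of arrays, and Uqcrq 0.25 ± 0.08. The values of Uqcrq and Uqcr10 depend on the probe set, since the mean of their 4 and 3 probe sets gave -0.06 and 0.03. Uqcrc2, a core protein, had 0.24 ± 0.09 and did not pass (limma adjusted p = 0.053). The other core protein gene, Uqcrc1, had -0.13 ± 0.07, and the Rieske iron-sulfur protein gene, Uqcrfs1, 0.11 ± 0.15.

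Complex IV, cytochrome c oxidase, was the complex with calls in both directions, 7 higher and 4 lower of 17. These are 41.2% and 23.5%, beside 28.5% and 19.3% of all genes. The 4 lower ones were isoforms of restricted tissue distribution, though 1 of them, Cox8c, had passed the filter only through dim cells, and the stricter level leaves 2 of them, Cox8b and Cox6b2. Of the 6 tested members of that kind 0 were called higher, while 5 of the 9 ubiquitous subunits were called higher and 0 lower, with a median of 0.23. Cox8b is known from heart, skeletal muscle and brown fat. It had 5.63 and 5.37 in bright PNX-dnFGFR cells, 5.69 and 5.78 in bright PNX cells and 5.74 and 6.33 in bright SHAM cells, against 7.22 and 7.07 in dim PNX-dnFGFR cells, 6.76 and 6.55 in dim PNX cells and 7.82 and 7.31 in dim SHAM cells. Every dim array lay above every bright array. The difference was -1.37 ± 0.13 (0.388-fold, limma adjusted p = 3.3e-05), the smallest adjusted p among the members.

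Cox6b2, known from testis, fell too, with 7.04, 7.64 and 7.90 on bright arrays, against 7.71, 8.04 and 8.68 on dim arrays, a range shared in part (-0.54 ± 0.12, limma adjusted p = 0.005). Cox4i2, the isoform enriched in lung, had 4.81, 5.22 and 5.58 on bright arrays, against 5.24, 5.54 and 5.69 on dim arrays (-0.32 ± 0.09, limma adjusted p = 0.016). Its sign differed between conditions, with 0.15 ± 0.16 in SHAM and -0.33 ± 0.16 in PNX, and the bright PNX-dnFGFR arrays lay below the filter. Cox8c, a testis isoform, was below the filter on all bright arrays (4.46 to 4.94, against 4.88 to 5.48 on dim arrays), so it passed the filter only through dim cells. Its difference of -0.43 ± 0.12 was -0.10 once values below the filter were set to it, and that of Cox4i2 was then -0.22. Cox6a2, of heart and skeletal muscle, had -0.22 ± 0.08 and missed the threshold (limma adjusted p = 0.05 after rounding), and Cox7a1, of muscle and brown fat, had 0.12 ± 0.11.

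None of the ubiquitous counterparts of these isoforms was called lower. Cox6b1 had 9.68, 9.87 and 10 on bright arrays, against 9.32, 9.46 and 9.58 on dim arrays, without overlap (0.37 ± 0.08, limma adjusted p = 0.0039). Cox4i1 was higher by 0.29 ± 0.08, also without overlap. Cox8a, Cox6a1 and Cox7a2 had 0.01 ± 0.15, -0.05 ± 0.11 and 0.10 ± 0.08 and were not called. Cox5b, a zinc-binding subunit, was called at 0.23 ± 0.08, and the mean of its 4 probe sets gave -0.04. The largest rise of complex IV was in Cox7a2l, which joins complexes III and IV into supercomplexes. It had 9.90, 10.30 and 10.40 on bright arrays, against 9.46, 9.60 and 9.72 on dim arrays, and a difference of 0.67 ± 0.09 (limma adjusted p = 0.00032). Ndufa4, named for complex I and found as a subunit of complex IV, was higher by 0.37 ± 0.10.

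Markers of heart, brown fat, pericytes and smooth muscle were read beside the restricted isoforms. Of 5 cardiomyocyte markers 1 exceeded the filter, Tnni3, which was called higher in bright cells (1.11 ± 0.10, limma adjusted p = 1.5e-05), and their summed signal was 6.59 to 7.25 on bright and 6.27 to 6.78 on dim arrays. None of the 3 brown fat markers besides Cox8b exceeded it. Ucp1 gave 3.80 to 4.17 on bright and 3.86 to 4.06 on dim arrays, Cidea 2.64 to 3.28 and 2.85 to 3.26, and Elovl3 2.98 to 3.59 and 3.23 to 3.64. Pericyte and smooth muscle markers, 6 besides Cox4i2, summed to 9.02 to 9.25 on bright and 7.67 to 8.13 on dim arrays. Of these 6, 2 did not exceed the filter, Kcnj8 (4.85) and Myh11 (1.03) were called higher in bright cells, Des was called lower (-0.66) and Cnn1 had 0.01. Tnni3 and Kcnj8 passed the filter only through bright cells. The part of these markers in the values of the isoforms was not tested.

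**Figure D2:**
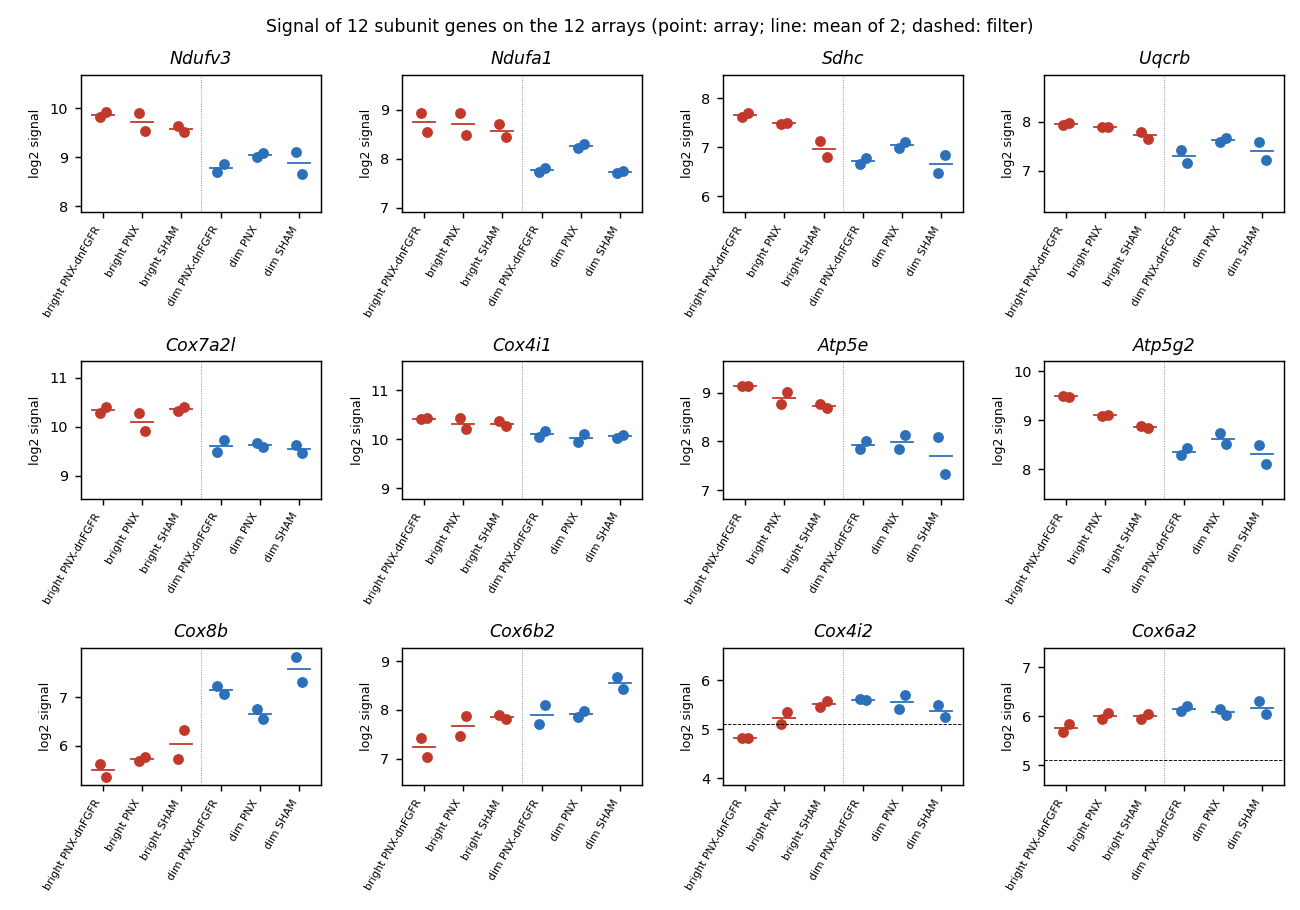
Log2 signal of 12 subunit genes on each of the 12 arrays, with bright groups in red to the left and dim groups in blue to the right; points are arrays, lines the means of 2, and the dashed line the filter at 5.1 where it falls in the range. Ndufv3, Ndufa1, Cox7a2l, Cox4i1, Atp5e and Atp5g2 separate the subsets upward and Cox8b separates them downward, while Cox4i2 in bright PNX-dnFGFR cells lies below the filter.

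Complex V had calls in 1 direction. On the chosen probe sets all 17 members lay above 0, beside 54.7% of all genes, and the median was 0.38 log2. Of the 17, 14 (82.4%) were called higher and 0 lower, beside 28.5% and 19.3% of all genes. For Atp5c1, at 0.24, the second probe set, with a mean signal of 6.6 above the filter, gave -0.58. The 5 small subunits around the membrane sector, which include subunits e, f and g, were all called, as were the 3 genes of the c ring, 3 of the 4 of the peripheral stalk and 3 of the 5 of the catalytic head and shaft. Atp5e had 8.69, 8.89 and 9.14 on bright arrays, against 7.33, 7.93 and 8.13 on dim arrays. No arrays overlapped, and the difference of 1.04 ± 0.13 (2.06-fold, limma adjusted p = 0.00019) was the largest rise among the members. Atp5j2, the gene of subunit f, was higher by 0.43 ± 0.08, with 10.35, 10.57 and 10.71 on bright arrays, against 9.94, 10.15 and 10.30 on dim arrays. The alpha and beta subunits that form the catalytic head were not called, with 0.17 ± 0.08 for Atp5a1 (limma adjusted p = 0.093) and 0.13 ± 0.08 for Atp5b (limma adjusted p = 0.21). Atp5h, subunit d of the stalk, had 0.14 ± 0.07.

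The 3 genes of subunit c encode the same mature protein with different targeting sequences. Atp5g2 had 9.50 and 9.48 in bright PNX-dnFGFR cells, 9.09 and 9.11 in bright PNX cells and 8.88 and 8.85 in bright SHAM cells, against 8.29 and 8.43 in dim PNX-dnFGFR cells, 8.73 and 8.51 in dim PNX cells and 8.50 and 8.10 in dim SHAM cells. Within bright cells the 3 conditions did not overlap, with PNX-dnFGFR highest. Bright minus dim was 0.72 ± 0.09 (limma adjusted p = 0.00017). Atp5g1 was higher by 0.54 ± 0.10 (limma adjusted p = 0.0017), with 7.86, 8.30 and 8.66 on bright and 7.43, 7.76 and 8 on dim arrays. Its second probe set, below the filter, gave -0.40, and the mean of both was 0.07 and not called. Atp5g3 was higher by 0.27 ± 0.09 (limma adjusted p = 0.037).

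The difference was then read within each condition. In PNX-dnFGFR 29 of the 77 members were called higher in bright cells, beside 21% of all genes, and 3 lower, beside 13.5%. In PNX 5 were called higher, beside 11.4%, and 1 lower, beside 7.07%. In SHAM 7 were called higher, beside 11.5%, and 2 lower, beside 7.53%. The median over the members was 0.37 log2 in PNX-dnFGFR, 0.18 in PNX and 0.15 in SHAM, and over all genes 0.06, 0.04 and 0.04. Ndufv3 and Atp5e were called higher in all 3 conditions and Cox8b lower in all 3. Ndufv3 had 1.08 ± 0.18 in PNX-dnFGFR, 0.68 ± 0.18 in PNX and 0.70 ± 0.18 in SHAM. Atp5e had 1.21, 0.90 and 1.02 with an SE of 0.23 each, and Cox8b had -1.65, -0.92 and -1.54 with the same SE. Of the 77 members 50 lay above 0 in all 3 conditions, 7 below 0 in all 3, and 45 were called in none. Complex V lay above 0 in each condition for all 17 members, with 10 called in PNX-dnFGFR, 1 in PNX and 2 in SHAM.

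These counts moved with single arrays. The count called higher in PNX-dnFGFR was 13 or 12 without bright replicate 1 or 2 and 16 without either dim replicate of that condition. In PNX it was 0 without dim replicate 2, 1 without dim replicate 1 or bright replicate 1 and 3 without bright replicate 2, and 3 without either bright PNX-dnFGFR array. In SHAM it was 1 without bright replicate 1 or dim replicate 2, 2 without bright replicate 2 and 4 without either bright PNX-dnFGFR array. Over the mean of the conditions 32 to 39 members were called higher whichever array was left out.

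**Figure D3:**
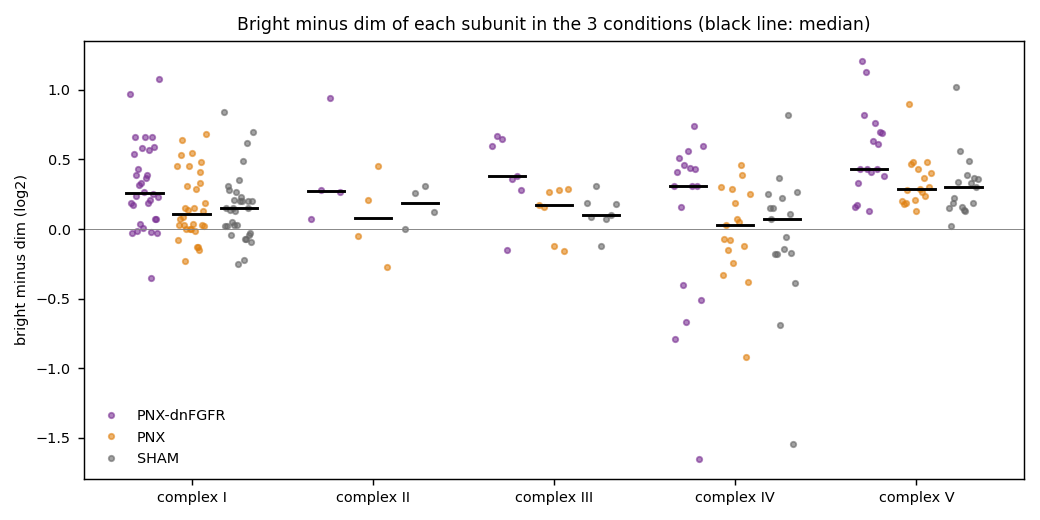
Difference of bright minus dim on the log2 scale for each tested subunit gene in PNX-dnFGFR, PNX and SHAM, by complex; points are genes and black lines medians. The complex V medians are 0.43, 0.29 and 0.30, and the lowest point in each condition is Cox8b.

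Set against each gene's mean over the 12 arrays, the median deviation of the members was 0.27 and 0.21 log2 on the bright PNX-dnFGFR arrays, 0.14 and 0.09 on the bright PNX arrays and 0.04 and 0.00 on the bright SHAM arrays. It was -0.15 and -0.13 on the dim PNX-dnFGFR arrays, -0.07 and -0.01 on the dim PNX arrays and -0.08 and -0.19 on the dim SHAM arrays. The bright groups did not overlap one another, while the dim groups of PNX-dnFGFR and SHAM did. Over all genes tested the same medians stayed between -0.04 and 0.04. For complex V they were 0.37 and 0.27 on the bright PNX-dnFGFR arrays, 0.16 and 0.18 on the bright PNX arrays and 0.08 and 0.03 on the bright SHAM arrays.

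**Figure D4:**
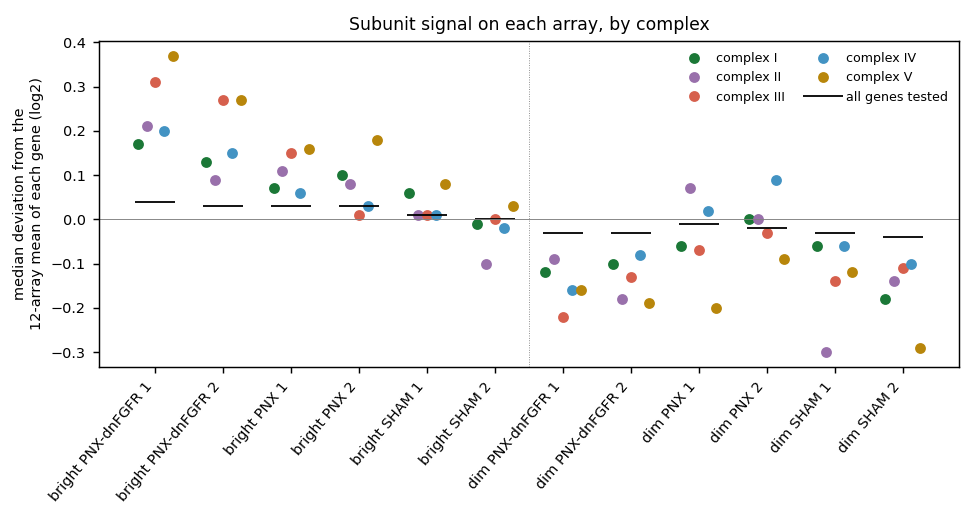
Median deviation of the subunit genes of each complex from their own 12-array means, in log2, on the 6 bright and the 6 dim arrays; black bars are the median over all genes tested. Complex V reaches 0.37 on a bright PNX-dnFGFR array and -0.29 on a dim SHAM array, while all genes stay between -0.04 and 0.04.

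Surgery and the mutant receptor moved few single subunit genes past the threshold. PNX-dnFGFR against SHAM, which differ in both, gave the only calls among the contrasts between conditions. In bright cells 2 of the 77 members were called, 1 in each direction, beside 5.2% of all genes (2.6% each way), and 19 had an unadjusted p below 0.05 (24.7%, against 22.8% of all genes). Sdhc was higher by 0.70 ± 0.17 (limma adjusted p = 0.045), with 7.62 and 7.69 in bright PNX-dnFGFR cells, against 7.12 and 6.8 in bright SHAM cells. Cox4i2 was lower, with 4.81 and 4.81 in bright PNX-dnFGFR cells, both below the filter, against 5.46 and 5.58 in bright SHAM cells (-0.71 ± 0.16, limma adjusted p = 0.038, and -0.42 with values below the filter set to it). Neither pair of groups overlapped. Neither call survived the loss of any array of these 2 groups, nor of either dim PNX-dnFGFR array, with limma adjusted p up to 0.27 for Sdhc and 0.22 for Cox4i2. The Sdhc call was also lost without either dim PNX array. Atp5g2 and Atp5g1 stood next, at 0.62 ± 0.16 and 0.65 ± 0.17 (limma adjusted p = 0.055 and 0.061). The median over the members was 0.22 log2 and 64 lay above 0, beside a median of 0.02 over all genes and 51.8% of them above 0. All 17 complex V members lay above 0 in this contrast.

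In dim cells 0 of the 77 members were called between PNX-dnFGFR and SHAM by limma, beside 0.0181% of all genes, and 2 had an unadjusted p below 0.05 (2.6%, against 9.52% of all genes). Ndufs4 had 8.65 and 8.57 in dim PNX-dnFGFR cells, against 8.06 and 7.93 in dim SHAM cells (0.62 ± 0.19, limma adjusted p = 0.38). Cox6b2 had 7.71 and 8.10 in dim PNX-dnFGFR cells, against 8.68 and 8.43 in dim SHAM cells (-0.65 ± 0.21, limma adjusted p = 0.38). Both pairs of groups were apart and neither difference passed.

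Between PNX and SHAM, which asks what pneumonectomy changes, limma called 0 members as the mean over both subsets, beside 0.144% of all genes. As that mean, 14 had an unadjusted p below 0.05 (18.2%, against 16.1% of all genes). In bright cells limma called 0, beside 0.00903%, with 2 at an unadjusted p below 0.05 (2.6%, against 8.24% of all genes). In dim cells it called 0, beside 0.0452%, with 10 at an unadjusted p below 0.05 (13%, against 12.2% of all genes). The nearest to the threshold as a mean were Sdhc at 0.46 ± 0.12 and Cox8b at -0.61 ± 0.16, both with a limma adjusted p of 0.13, and Ndufs3, a core subunit of complex I, at 0.31 ± 0.09 (limma adjusted p = 0.15). For Ndufs3 both PNX arrays lay above both SHAM arrays in each subset. In dim cells Cox8b had 6.76 and 6.55 after pneumonectomy, against 7.82 and 7.31 after sham surgery (-0.91 ± 0.23, limma adjusted p = 0.18). The median over the members was 0.08 log2, beside 0.02 over all genes.

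Between PNX-dnFGFR and PNX, which asks what the mutant receptor changes, limma called 0 members as the mean over the subsets, beside 0% of all genes, 0 in bright cells, beside 0.00903%, and 0 in dim cells, beside 0%. At an unadjusted p below 0.05 there were 7 members as the mean (9.09%, against 12.5% of all genes), 6 in bright cells (7.79%, against 12.6%) and 4 in dim cells (5.19%, against 7.79%). As a mean, Uqcrc2 had 0.31 ± 0.11, Atp5j, coupling factor 6 of the ATP synthase stalk, 0.28 ± 0.10, and Ndufs4 0.34 ± 0.13, with limma adjusted p of 0.30 to 0.35. In bright cells Uqcr11 had 9.15 and 9.24 in PNX-dnFGFR, against 8.82 and 8.79 in PNX (0.39 ± 0.12, limma adjusted p = 0.22). In dim cells Cox5b had 10.08 and 9.85 in PNX-dnFGFR, against 10.31 and 10.44 in PNX (-0.41 ± 0.14, limma adjusted p = 0.54). The median over the members was 0.11 log2 in bright and -0.06 in dim cells, beside 0.01 and -0.02 over all genes. In bright cells 60 members lay above 0, beside 51% of all genes, and in dim cells 24, beside 46.6%. This contrast shares its PNX arrays with the one before.

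Whether these effects differ between bright and dim cells was tested as a difference of effects. For PNX minus SHAM limma called 0 members, beside 0% of all genes, and 0 had an unadjusted p below 0.05, against 4.47% of all genes. For PNX-dnFGFR minus PNX it called 0, beside 0%, and 3 had an unadjusted p below 0.05 (3.9%, against 8.21% of all genes). These were Atp5g2 at 0.64 ± 0.22, Uqcr11 at 0.51 ± 0.18 and Cox5b at 0.48 ± 0.20, with limma adjusted p of 0.53, 0.53 and 0.59. With 2 arrays per group such a difference has wide limits, and that of Atp5g2 ran from 0.14 to 1.15 log2.

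Genes around the respiratory chain were counted in the same fit, as bright minus dim over the mean of the conditions, where 28.5% of all genes were called higher and 19.3% lower. Assembly factors, the citric acid cycle with pyruvate enzymes, regulators and carriers had 42.1%, 35%, 31.6% and 25% called in either direction. None was above the 47.8% of all genes. Of 38 factors that assemble the complexes 8 were called higher and 8 lower, with a median of 0.07 log2. Coa5 had 0.70, Cox19 0.55 and the copper chaperone gene Cox17 -0.57. Cox11, also called lower (-0.82), was below the filter on all bright arrays and so passed it only through dim cells. The list of the citric acid cycle also holds pyruvate dehydrogenase, its kinases and pyruvate carboxylase. Of its 20 genes 3 were called higher and 4 lower, with a median of 0.06. Suclg2, a subunit of succinyl-CoA ligase, had 1.56. Among those called lower, Idh3g (-0.32) and Ogdh (-0.27) belong to the cycle itself, and Pcx (-0.71) and Pdk2 (-0.33) do not. Of 19 regulators of mitochondrial genes 3 were called higher, among them Myc at 2.76, and 3 lower. Of the 3 lower, Ppargc1b and Polrmt were below the filter on all bright arrays and so passed it only through dim cells. The 8 carriers of ADP, phosphate and the like had 2 called higher and a median of 0.14. Outside the symbol rule, Atpif1, the inhibitor of ATP synthase, was higher by 0.41 ± 0.09, and Cyc1, the cytochrome c1 of complex III, was lower (-0.25 ± 0.08).

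Of 66 cytosolic ribosomal protein genes 64 were called higher in bright cells and 0 lower, with a median of 0.68 log2. A glycolysis list of 16 genes, which includes glucose and lactate transporters, had 10 called higher and 1 lower, with a median of 0.54. Pfkp, a phosphofructokinase, had 1.37, and the 1 lower was the glucose transporter gene Slc2a1 (-0.67). Eno2 and Hk2, also called higher, were below the filter on all dim arrays and passed it only through bright cells. Of 73 mitochondrial ribosomal protein genes 26 were called higher and 5 lower, with a median of 0.13. Called in either direction, the share of these mitochondrial ribosomal genes lay below the 47.8% of all genes. Over all genes 28.5% were called higher and 19.3% lower. Between bright PNX-dnFGFR and bright SHAM cells, mitochondrial ribosomal protein genes had a median of 0.24 with 64 of 73 above 0, and cytosolic ones 0.18 with 60 of 66 above 0, beside 0.22 for the subunits. None of these ribosomal genes was called in that contrast, while 4 of the 16 genes of the glycolysis list were, all higher. Of all genes tested 2.6% were called higher there, 51.8% lay above 0 and the median was 0.02 log2.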

How the data were processed

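Per the labels' protocols, cDNA of the sorted cells went through 25 amplification cycles and was labelled for Affymetrix arrays. The deposited values are log2 signals made with RMA, per the submitters' processing notes; RMA quantile-normalizes the arrays, so a shift shared by most genes would not be seen, and its version is not given in the sources used here. Values ran from 1.5 to 13.05. Of 45141 probe sets 104 controls were left out, 28898 had 1 gene in the annotation, 551 several and 15588 none, and the last 2 kinds were not used. Subunit genes without a probe set of their own, such as Ndufb6 and Cox7b, were not analysed here. The probe set with the highest mean stood for each gene. Of the 78 chosen, 9 carry the _s and 5 the _x mark of probes shared with other transcripts, so signal of near-identical copies cannot be told apart there.

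A mean per group was fitted to all genes with limma 3.58.1 in R 4.3.3, with 14 contrasts and 6 residual degrees of freedom (3.31 prior). The fit was also run on simulated data, with differences larger than most of those reported here. That run therefore does not cover small differences. No pairing of bright with dim arrays entered the fit. Values are named for the 4 called members with the smallest adjusted p and the largest uncalled difference per complex, the 2 highest signals, complex IV isoforms, subunit c, and members called (or the 3 smallest p) between conditions; other members were named after their values were seen, and not every gene taken is named. The members and lists were chosen with earlier results of these data known. Alternatives were no filter, a stricter filter, values below the filter set to it, repeated quantile normalization, probe sets averaged per gene, probe sets without _s or _x first, a variance trend, current symbols, replicate blocks, only the arrays compared, and each array left out. Promoters are RefSeq's (GRCm38.p6).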

Additional observations from a re-analysis of the deposited data

How the results depend on the processing

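Leaving out each array in turn gave 35 to 43 members called for bright minus dim as the mean (32 to 39 higher, 3 to 5 lower) and a median of 0.21 to 0.25 log2. Within conditions it gave 14 to 37 in PNX-dnFGFR (12 to 32 higher, 2 to 5 lower), 0 to 8 in PNX (0 to 7 higher, 0 to 1 lower) and 2 to 8 in SHAM (1 to 7 higher, 1 to 2 lower). For PNX-dnFGFR minus SHAM in bright cells it gave 0 to 3 members, with 0 without any array of bright PNX-dnFGFR, bright SHAM or dim PNX-dnFGFR. The other contrasts between conditions stayed at 0 members. The stricter filter gave 2 members called lower as the mean and 10 called in PNX (9 higher). With no filter 1 member was called lower in SHAM and 1 for PNX-dnFGFR minus SHAM in bright cells. The mean of the probe sets gave 7 lower as the mean, 5 lower in PNX-dnFGFR and a median of 0.16 log2, and it took the calls from Ndufs4 (0.05), Uqcr10 (0.03) and Atp5g1 (0.07). A variance trend gave 10 in PNX (9 higher) and 5 for PNX-dnFGFR minus SHAM in bright cells. Only the arrays of the groups compared gave 3 in SHAM (2 higher, 1 lower), 2 in PNX (1 higher) and 1 for PNX-dnFGFR minus SHAM in bright cells. Bright minus dim changed sign in genes near 0 or with several probe sets. Repeated quantile normalization gave -0.03 for Sdha and -0.03 for Cox8a. The mean of the probe sets gave -0.33 for Sdha, -0.06 for Uqcrq, -0.04 for Cox5b and -0.03 for Cox8a, and probe sets without the _s or _x mark gave -0.07 for Uqcrq, 0.03 for Cox6a1 and -0.07 for Cox8a. With arrays left out Sdha ran from -0.01 to 0.02, Sdhd from -0.04 to 0.12, Cox6a1 from -0.16 to 0.05 and Cox8a from -0.11 to 0.12. Apart from the probe sets averaged or exchanged, the cause of these changes was not tested. Over all settings the named members kept direction and call in 809 of their values, lost the call in 72, gained it in 15 and changed sign in 22. Among members named by the rule above and called as the mean, Ndufb11 and Cox5b lost the call in 10 of the 12 left-out fits each. Atp5g3 lost it in 9, Uqcrq in 7 and Cox8c in 3. Other called members are not covered by this list, although the count called fell as low as 35.

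The labels number the replicates, and same-numbered arrays of different groups deviated together only weakly, with correlations of -0.19 to 0.35 over the pairs of groups. A shared number was therefore not used as a pairing, and whether same-numbered samples share an animal or a day is not known. With the replicate number as a block 1 member was called lower in SHAM and 1 for PNX-dnFGFR minus SHAM in bright cells, and the other counts stayed within 1.5 times. A block of bright and dim arrays of the same condition and number, added after the data had been seen, moved no count of bright minus dim as the mean by over 1.5 times.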

Other observations

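Probe sets of the members other than the brightest gave a second reading of bright minus dim. Of 38 members with more than 1 probe set, 34 had more than 1 above the filter on the mean, and in 24 of these all such probe sets had the same sign, with a median range of 0.11 log2 between them. The 45 other probe sets above the filter had a median of 0.13 log2, and 14 of them were lower in bright cells. All 11 other probe sets at or under the filter were lower in bright cells, with a median of -0.21 log2, and among all remaining probe sets at or under it 66% were lower, with a median of -0.07.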
